A study of Mus musculus with 20 samples.

Results

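The interleukin-1 (IL-1) and interleukin-18 (IL-18) system was read in mouse peripheral blood through 10 genes, namely the ligands *Il1a*, *Il1b* and *Il18*, the inhibitors *Il1rn*, *Il1r2* and *Il18bp*, and the receptor chains *Il1r1*, *Il1rap*, *Il18r1* and *Il18rap*. Every non-control probe that the array files name for one of these genes was taken, which gave 12 of 39429 probes and 10 of 31093 distinct gene names. *Il1rap* and *Il18r1* have 2 probes each, for different transcript variants, and the other 8 genes have 1 each. Whole blood RNA, collected by cardiac puncture and depleted of globin transcripts, was hybridised to 20 single-colour Agilent arrays, 5 for each of 4 groups. Mice labelled WT (C57BL/6) and mice labelled *Il10*-/- (strain B6.129P2-Il10tm1Cgn/J, a model of inflammatory bowel disease) were male littermates of 8 to 10 weeks from crosses of heterozygous parents. They received 0 Gy (sham) or 7 Gy of X-rays to the whole body, and blood was drawn 24 h later. The *Il10* alteration is carried in the germline and so by every cell type. In whole blood, fewer cells of a type and less RNA per cell cannot be told apart.

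IL-1α and IL-1β signal through the receptor chain encoded by *Il1r1* together with the accessory protein encoded by *Il1rap*, and drive fever, neutrophil mobilisation and the hepatic acute-phase response. *Il1rn* encodes a secreted antagonist that occupies the receptor without signalling, and *Il1r2* encodes a decoy receptor that binds IL-1 without a signalling domain. IL-18, like IL-1β, is matured by caspase-1, acts on T cells and NK cells through the chains encoded by *Il18r1* and *Il18rap* to promote interferon-γ, and is neutralised in the circulation by the soluble IL-18 binding protein encoded by *Il18bp*. *Il10* itself encodes an anti-inflammatory cytokine that restrains the production of IL-1 by myeloid cells.

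The receptor genes *Il1r2*, *Il1r1*, *Il18r1* and *Il18rap* lie in this order along one stretch of mouse chromosome 1. The probe of *Il1r2* covers chr1:40180014-40180073, the variant 2 probe of *Il18r1* covers chr1:40537851-40537910, and the probe of *Il18rap* covers chr1:40605729-40605788, all on the + strand of build mm9. They are shown because they identify the decoy and IL-18 receptor transcripts that were measured, and read 5′ to 3′ as the array files give them:
Il1r2: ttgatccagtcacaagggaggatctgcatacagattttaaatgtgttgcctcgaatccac
Il18r1 variant 2: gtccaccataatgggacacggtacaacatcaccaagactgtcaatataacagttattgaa
Il18rap: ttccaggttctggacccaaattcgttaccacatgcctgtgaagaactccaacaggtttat
The variant 1 probe of *Il18r1* lies at chr1:40557541-40557600 and that of *Il1r1* at chr1:40372667-40372726. The other probes named below lie at chr2:129190347-129190406 on the − strand (*Il1b*), chr2:24205094-24205153 (*Il1rn*), chr16:26701498-26701557 (*Il1rap* variant 2), chr9:50389761-50389820 (*Il18*) and, on the − strand, chr7:109164100-109164159 (*Il18bp*), all in mm9.

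*Il18bp* and *Il18* are inhibitor and ligand of 1 pathway, and both were at higher levels on irradiated than on unirradiated arrays of the same genotype. Their RefSeq promoter windows of 300 bases (250 before to 50 after the annotated start, build GRCm38.p6, each in the direction of its gene) are therefore shown, chr7:102018183-102018482 on the − strand for *Il18bp* and chr9:50554450-50554749 on the + strand for *Il18*:
Il18bp: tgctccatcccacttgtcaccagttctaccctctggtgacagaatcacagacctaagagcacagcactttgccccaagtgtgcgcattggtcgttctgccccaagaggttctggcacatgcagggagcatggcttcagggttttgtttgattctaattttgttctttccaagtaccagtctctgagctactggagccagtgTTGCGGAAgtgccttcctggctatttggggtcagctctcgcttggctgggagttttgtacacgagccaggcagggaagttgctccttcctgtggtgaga
Il18: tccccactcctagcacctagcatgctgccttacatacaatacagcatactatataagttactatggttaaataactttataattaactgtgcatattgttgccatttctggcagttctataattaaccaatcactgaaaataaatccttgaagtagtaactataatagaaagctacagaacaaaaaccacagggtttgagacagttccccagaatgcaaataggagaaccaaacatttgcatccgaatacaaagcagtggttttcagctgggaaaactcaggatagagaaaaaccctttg
The capitals mark the single match of a C/EBP motif, TTGCNNAA read on both strands, which begins 49 bases before the start of *Il18bp*. The motif is held by 10.8% of all 32851 promoter windows of this length. Neither window holds the GAS motif TTCNNNGAA, the ISRE core GAAANNGAA or the NF-κB motif GGANTTTCC, which are found in 8.3%, 8.56% and 1.25% of all windows. Among the 15 windows found for the 10 genes, 2 hold the GAS motif (*Il1r2* and 1 of the *Il18r1* windows), 1 the ISRE core (*Il1rap*), 2 the C/EBP motif (*Il1r1* and *Il18bp*) and 1 the NF-κB motif (*Il18rap*), and none holds more than 1 kind of motif. The *Il18r1* window holds 2 matches of the GAS motif. Which window holds a match depends on the letters chosen, and no match was tested as a binding site.

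On 19 arrays 34.6% to 57.8% of spots were well above background, and on 1, replicate 5 of the unirradiated WT group, 29.9% were, with a spread of repeated spots (SD 0.889 on the log2 scale, against 0.137 to 0.414) that set it apart. Replicates 1 and 2 were the most alike arrays within each group (robust SD of their difference 0.230 to 0.336, against 0.407 to 1.39 in the other pairs), and 12 to 28 bright probes (level above 4) differed between them by over 1 log2 unit, against 186 to 2483. They differed by more than their repeated spots and were kept as separate samples, but whether they are RNA of separate mice was not tested, and n may be 4 a group. With each such pair averaged into 1 sample the counts of called member probes were 4 between the unirradiated genotypes, 1 in irradiated WT and 1 in irradiated *Il10*-/- mice. The *Il10* probe at chr1:132920943-132921002 was well above background on all 10 arrays labelled *Il10*-/- (means 2.75 and 2.71) and on 0 of 10 labelled WT. Whether it lies in the altered part of the gene is not given in the sources used here, so it does not check the labels, and every direction below rests on them. All levels below are log2 intensities relative to the median of the array, listed in the order of replicates 1 to 5, and a probe was called when limma gave p below 0.001 with a Benjamini-Hochberg rate below 10% over 18581 features. Of the 12 probes 9 passed the filters and were tested; those of *Il1a* and *Il1r1* and the variant 1 probe of *Il1rap* did not pass the background filter.

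**Figure D1:**
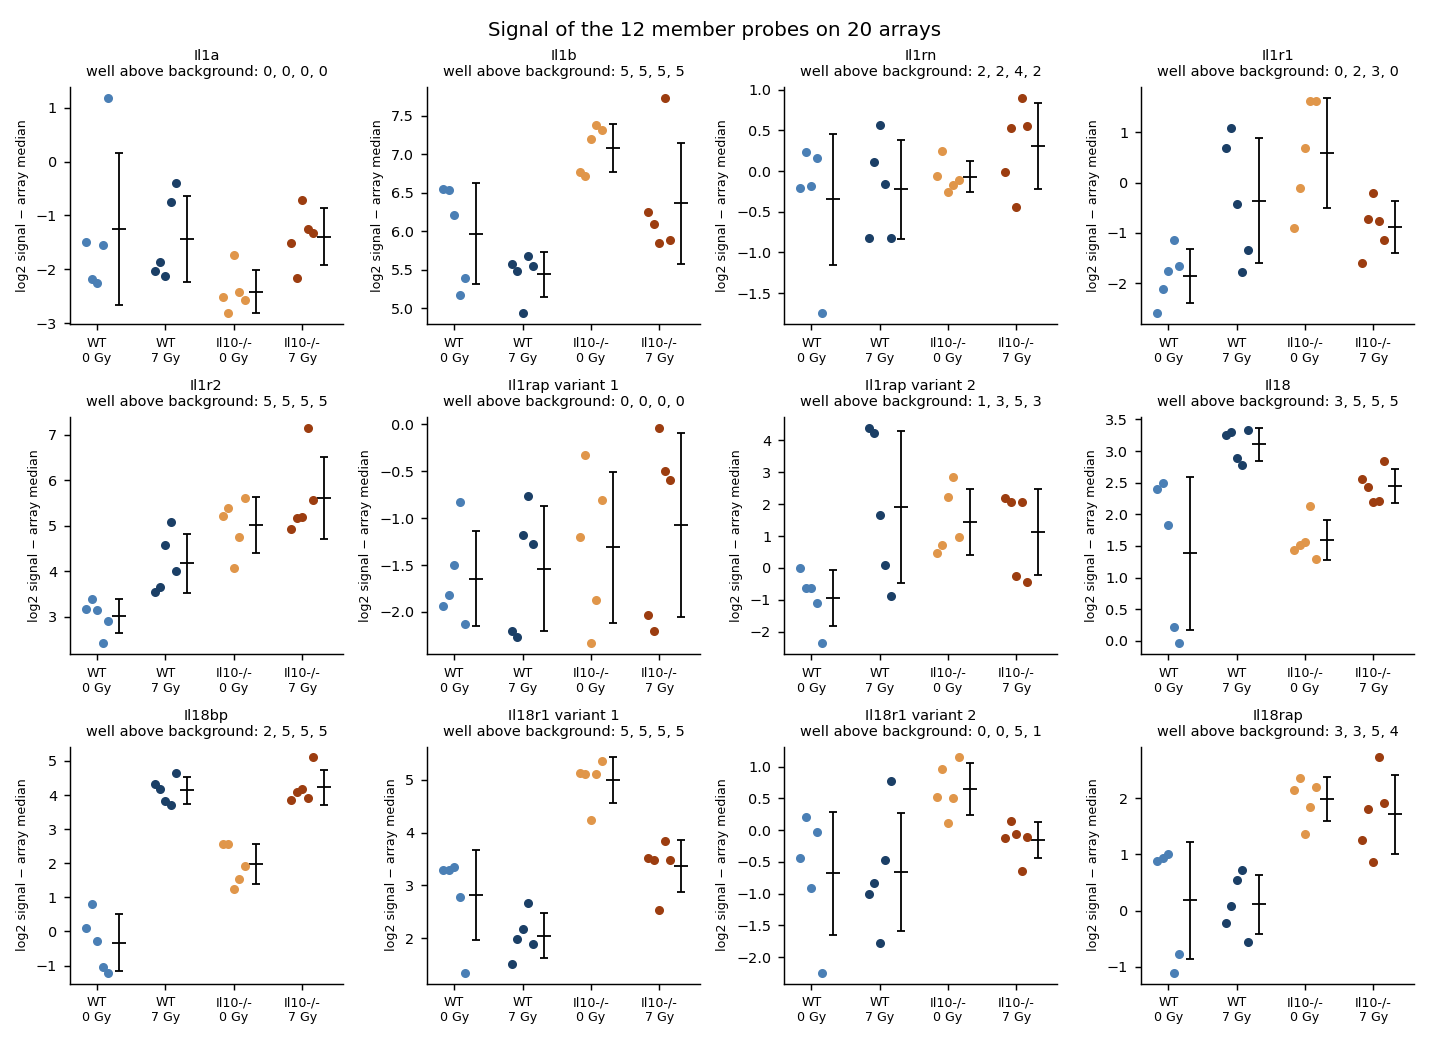
Log2 intensity relative to the array median for each probe of the 10 genes, 1 point per array with the mean and SD of each group of 5. The *Il18bp* points of both irradiated groups sit above those of the unirradiated group of the same genotype, and the *Il1r2* and *Il18r1* variant 1 points of unirradiated *Il10*-/- mice sit above those of unirradiated WT mice.

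Counted over the 9 tested probes of 8 genes, calls were most frequent between the unirradiated genotypes. All 9 probes were higher in *Il10*-/- mice, 6 without overlap (4.54% of all features in either direction, 3.98% as higher), and 4 were called (*Il1r2*, *Il1rap*, *Il18r1* and *Il18bp*), against a background of 0.845% of features called, all of which were higher. The members were chosen with earlier results of these data known, so these counts describe them and are no independent test of the set. The median difference of the members was 1.80, beside 0.36 over all features, a shift of the whole scale in this comparison. Without replicate 5 of the unirradiated WT group, the array with the weakest signal, the median of all features was 0.15. In that fit 3 member probes were called, among 114 of 18581 features. Scaled to 1 reference array the median of all features was −0.01, and *Il1r2* (1.70), *Il18r1* (1.88) and *Il18bp* (1.99) were still called while *Il1rap* (2.09) was not. Without replicate 4 of the unirradiated WT group *Il1r2* alone was called, and *Il18r1* and *Il18bp* (2.17 and 2.11) had adjusted p of 0.104 and 0.109. This comparison rests on few calls, 157 of 18581 features. With quantile normalization 25 of 17085 features were called, among them *Il18r1* alone (1.86), and without moderation of the variance 8 features and no member were. With a normexp background correction 0 of 11432 features were called, and the members stood at 1.45 for *Il1r2*, 1.51 for *Il18r1* and 0.48 for *Il18bp*.

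After irradiation of WT mice 1 of 9 probes was called, *Il18bp*, against 6.8% of all features (4.48% as higher), and 3 did not overlap, against 16.1%. In *Il10*-/- mice 2 of 9 were called, *Il18bp* higher and *Il18r1* lower, against 9.15% (3.28% higher and 5.87% lower), and 3 did not overlap, against 17%. The members' medians were 0.12 in WT mice (all features −0.02) and −0.27 in *Il10*-/- mice (all features −0.10). Against these backgrounds, 1 or 2 calls among 9 probes are not a result about the genes as a set. Between the irradiated genotypes 0 of 9 probes were called (0.00538% of features), and 2, *Il1b* and *Il18rap*, were without overlap (2.97%). An unadjusted limma p under 0.05 was reached by 5 of the 9, beside 2066 of 18581 features. For the difference between the responses 0 of 9 were called (0% of features). Here 2, *Il1rap* (−3.16, SE 1.19, adjusted p = 0.689) and *Il18bp*, had an unadjusted p under 0.05, beside 1300 of 18581 features.

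**Figure D2:**
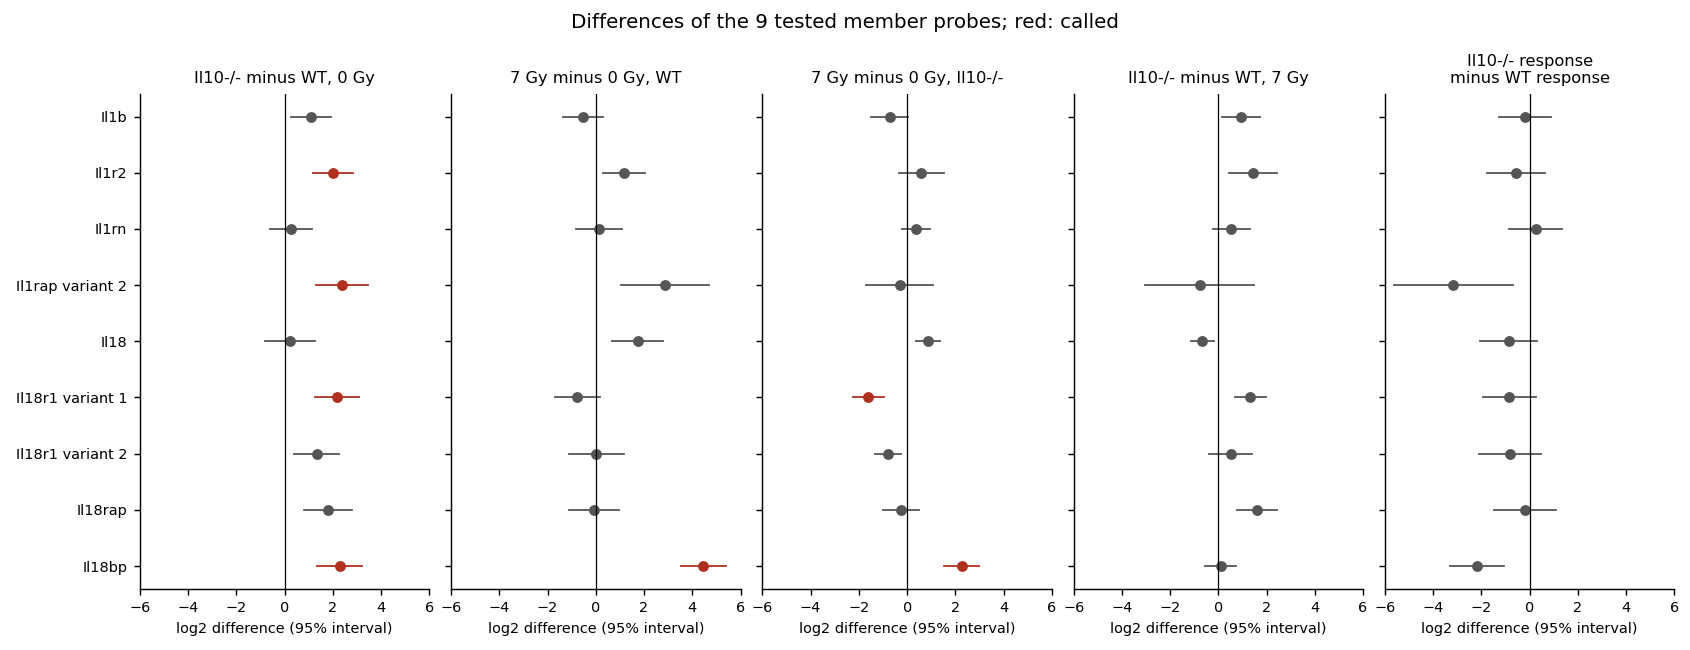
Log2 differences of the 9 tested probes in each comparison with their 95% confidence intervals from limma, in red for called probes and in grey for the others. In the comparison of unirradiated groups all 9 points lie above 0, and the *Il18bp* point in the WT radiation comparison, at 4.46, is the highest of all.

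*Il1b*, the IL-1 ligand that myeloid cells release, was the ligand measured on every array. In unirradiated WT mice its level was 6.54, 6.54, 6.21, 5.16 and 5.39, and in unirradiated *Il10*-/- mice 6.77, 6.72, 7.20, 7.38 and 7.32. The 2 groups did not overlap, but the difference of 1.11 (SE 0.39, 2.16-fold) did not pass the test (adjusted p = 0.225). After 7 Gy the level was 5.57, 5.48, 4.93, 5.68 and 5.54 in WT mice and 6.24, 6.09, 5.85, 7.73 and 5.89 in *Il10*-/- mice. The irradiated groups again did not overlap, with *Il10*-/- mice 0.92 higher (adjusted p = 0.403). Within genotypes the radiation differences of −0.53 in WT mice (adjusted p = 0.413) and −0.72 in *Il10*-/- mice (adjusted p = 0.166) did not pass, and the groups overlapped. The order of means, from unirradiated *Il10*-/- (7.08) through irradiated *Il10*-/- (6.36) and unirradiated WT (5.97) to irradiated WT mice (5.44), thus had overlapping neighbours throughout. The mean log2 level of 14 mature neutrophil markers ran from 4.99 to 6.71 in unirradiated WT, 6.33 to 6.73 in irradiated WT, 7.21 to 8.40 in unirradiated *Il10*-/- and 6.90 to 8.84 in irradiated *Il10*-/- mice. Over the 20 arrays, which share RNA and slides between both readings, *Il1b* correlated with this marker mean by 0.777, and by 0.732 for deviations from group means, and its part in the *Il1b* values was not tested.

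*Il1a*, the ligand that is active without caspase-1, was not detected, with 0 of 20 arrays well above background. Its readings lay between −2.81 and 1.18, and no difference is given for it.

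*Il1r2*, the decoy receptor, was higher in unirradiated *Il10*-/- than in unirradiated WT mice. Its level was 3.16, 3.39, 3.15, 2.42 and 2.90 in unirradiated WT mice and 5.22, 5.38, 4.06, 4.75 and 5.61 in unirradiated *Il10*-/- mice. Every *Il10*-/- array was above every WT array, and *Il1r2* was higher by 2.00 (SE 0.39, 95% confidence interval 1.18 to 2.83, 4.01-fold, adjusted p = 0.0290). The difference was positive on all 5 slides, from 0.91 to 2.72. After 7 Gy the level was 3.54, 3.66, 4.58, 5.07 and 4.00 in WT mice, all above the unirradiated WT arrays, with a difference of 1.17 (SE 0.40, adjusted p = 0.0623) that did not meet the call rule because its unadjusted value was above 0.001. In irradiated *Il10*-/- mice the level was 4.93, 5.16, 5.20, 7.16 and 5.55, which overlapped the unirradiated *Il10*-/- arrays (difference 0.59, adjusted p = 0.350). Irradiated *Il10*-/- arrays were 1.43 higher than irradiated WT arrays (adjusted p = 0.371) with overlap. *Il1r2* correlated with the neutrophil marker mean by 0.869 over the 20 arrays and by 0.781 within groups, while 7 of the 14 tested neutrophil markers were themselves called higher in unirradiated *Il10*-/- mice. The part of neutrophil RNA in the *Il1r2* difference was not tested.

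*Il1rn*, the receptor antagonist, was well above background on 10 of 20 arrays and did not pass the test in any comparison. Its group means were −0.35 in unirradiated WT, −0.23 in irradiated WT, −0.07 in unirradiated *Il10*-/- and 0.31 in irradiated *Il10*-/- mice, and all 4 groups overlapped. Within an array, the ratio of *Il1rn* to *Il1b* differed between the compared groups by −0.83 to 1.09 on the log2 scale, with overlap in each of the 4 comparisons.

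*Il1r1*, the signalling receptor of IL-1, read near the detection limit. It was well above background on 0 of 5 arrays of unirradiated WT mice, 2 of irradiated WT, 3 of unirradiated *Il10*-/- and 0 of irradiated *Il10*-/- mice. Its readings were −2.60, −2.10, −1.76, −1.14 and −1.66 in unirradiated WT mice and −0.89, −0.10, 0.68, 1.62 and 1.62 in unirradiated *Il10*-/- mice. These groups did not overlap. With WT readings raised to the lowest signal well above background on their array, the level was 1.59-fold higher in *Il10*-/- mice. This fold is no lower bound, since only 3 of the 5 *Il10*-/- arrays were themselves well above background. The probe was outside the main test; in a fit of all 39429 probes without filters its difference of 2.44 (SE 0.49) met the call rule (adjusted p = 0.0864). With the irradiated *Il10*-/- readings raised in the same way, the level was 1.12-fold lower than in unirradiated *Il10*-/- mice, again not a bound. The groups overlapped, 3 of the 5 unirradiated arrays were well above background, and the difference was not called (adjusted p = 0.0788 in the same fit).

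*Il1rap*, the accessory chain, was read by a probe for variant 2 that was well above background on 12 arrays and by one for variant 1 that was so on 0 of 20, with readings from −2.33 to −0.03. By the variant 2 probe the level was 0.01, −0.64, −0.63, −1.10 and −2.36 in unirradiated WT mice and 0.48, 0.71, 2.21, 2.86 and 0.97 in unirradiated *Il10*-/- mice. The groups did not overlap, and *Il1rap* was higher in *Il10*-/- mice by 2.39 (SE 0.52, adjusted p = 0.0492), or 5.24-fold, although only 1 of the 5 WT arrays was well above background. In irradiated WT mice the level spread over 4.40, 4.24, 1.67, 0.11 and −0.87, and in irradiated *Il10*-/- mice over 2.20, 2.08, −0.26, 2.08 and −0.43. Irradiated and unirradiated WT arrays overlapped, and the difference of 2.86 (SE 0.86, adjusted p = 0.0354) missed the call rule, whereas with the slide as a block it met it (adjusted p = 0.0016). The difference was positive on all 5 slides, from 1.21 to 4.88.

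The *Il1rap* values moved with liver transcripts. The mean of 19 hepatocyte markers ran from 0.72 to 1.86 in unirradiated WT, 2.68 to 10.71 in irradiated WT, 2.10 to 8.98 in unirradiated *Il10*-/- and 1.41 to 8.90 in irradiated *Il10*-/- mice. In unirradiated WT mice 5 of the 22 hepatocyte markers on the array were well above background on no array and 6 on all 5, against 15 on all 5 in both irradiated WT and unirradiated *Il10*-/- mice and 6 on all 5 in irradiated *Il10*-/- mice, and in these 3 groups each marker was so on at least 1 array. All 19 tested markers were higher in unirradiated *Il10*-/- than WT mice, 3 of them called, and 12 were called higher in irradiated WT mice. The variant 2 reading of *Il1rap* correlated with the hepatocyte mean by 0.888 over 20 arrays and by 0.856 within groups. With that mean as a covariate the baseline difference was 1.29 (adjusted p = 0.316) and the WT radiation difference −1.03 (adjusted p = 0.7099), so neither was called. The hepatocyte mean did not overlap between the groups of either comparison, so this fit cannot separate its part from that of the group. With it, calls over all features went from 157 to 278 of 18581 at baseline and from 1263 to 172 in irradiated WT mice. The part of liver RNA in the *Il1rap* differences was not tested. *Il1rap* also lost its baseline call without replicate 4 or 5 of the unirradiated WT group (adjusted p = 0.197 and 0.117), and without replicate 3 or 4 of the unirradiated *Il10*-/- group. The mean of 9 heart muscle markers correlated with the variant 2 reading by 0.634 (0.792 within groups). It ran from 0.03 to 2.62 in unirradiated WT, 0.49 to 7.91 in irradiated WT, −0.01 to 3.35 in unirradiated *Il10*-/- and 1.78 to 7.68 in irradiated *Il10*-/- mice. Of the 9 heart muscle markers 0 were called in irradiated WT and 6 were called higher in irradiated *Il10*-/- mice, and their part in the *Il1rap* values was not tested.

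*Il18*, the ligand of the second pathway, was higher after irradiation in both genotypes without meeting the call rule in either, since the unadjusted values stayed above 0.001. In WT mice it went from 2.39, 2.50, 1.83, 0.22 and −0.04 without irradiation to 3.26, 3.31, 2.88, 2.78 and 3.33 after 7 Gy. These arrays did not overlap, and the difference was 1.73 (SE 0.51, 3.32-fold, adjusted p = 0.0313). By slide it was 0.86, 0.81, 1.05, 2.56 and 3.36, and only 3 of the 5 unirradiated WT arrays were well above background. In *Il10*-/- mice *Il18* went from 1.44, 1.52, 1.57, 2.13 and 1.30 to 2.56, 2.43, 2.19, 2.22 and 2.84. Again no array of one group reached the other, with a difference of 0.86 (SE 0.23, 1.81-fold, adjusted p = 0.0226). Before irradiation the genotypes overlapped (difference 0.21, adjusted p = 0.805). After it *Il10*-/- mice were 0.66 lower than WT mice (adjusted p = 0.390), on 5 of 5 slides but with overlap of the groups.

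*Il18bp*, the soluble inhibitor of IL-18, was the member called in the most comparisons. Its level was 0.10, 0.81, −0.27, −1.05 and −1.22 in unirradiated WT mice, where 2 of 5 arrays were well above background, and 4.32, 4.17, 3.83, 3.70 and 4.66 in irradiated WT mice. It rose by 4.46 (SE 0.44, 95% confidence interval 3.54 to 5.38, adjusted p = 2.18e-05) in WT mice, or 22-fold. In unirradiated *Il10*-/- mice the level was 2.55, 2.56, 1.25, 1.55 and 1.91, and in irradiated *Il10*-/- mice 3.85, 4.08, 4.19, 3.92 and 5.11. Here it rose by 2.26 (SE 0.33, interval 1.54 to 2.98, 4.80-fold, adjusted p = 0.000856). With a normexp background correction the rise was 1.73 in WT mice and still called, and the difference in *Il10*-/- mice was 0.86 and not called, where this setting called 0 of 11432 features. The unirradiated *Il10*-/- arrays thus lay between the 2 WT groups, all above the unirradiated WT arrays, and the baseline difference of 2.29 (SE 0.45, interval 1.35 to 3.23, 4.89-fold) was called (adjusted p = 0.0287). After irradiation both genotypes were at a like mean, 4.13 and 4.23, with a difference of 0.09 (interval −0.55 to 0.74). The difference between the responses was −2.20 (SE 0.54, interval −3.32 to −1.07) and negative on 5 of 5 slides, but did not pass the test over all features (adjusted p = 0.689), in which no feature was called.

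**Figure D3:**
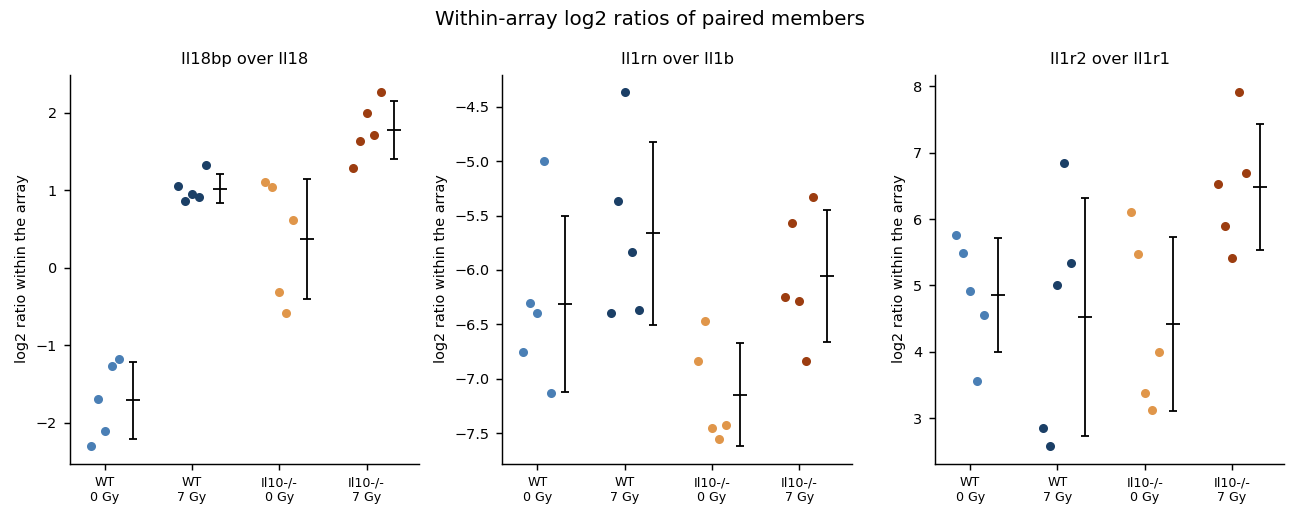
Within-array log2 ratios of an inhibitor to its ligand or of the decoy to the signalling receptor, 1 point per array with the mean and SD of each group of 5. The *Il18bp* to *Il18* ratio of unirradiated WT mice (−2.30 to −1.18) lies below every other array, and the *Il1rn* to *Il1b* and *Il1r2* to *Il1r1* ratios overlap between the compared groups.

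The ratio of *Il18bp* to *Il18* within an array compares groups without the array's scaling. Since the 2 probes differ in brightness, only its shifts between groups have a meaning. It was −1.71 ± 0.49 (SD, n = 5) in unirradiated WT, 0.37 ± 0.78 in unirradiated *Il10*-/-, 1.02 ± 0.19 in irradiated WT and 1.78 ± 0.37 in irradiated *Il10*-/- mice. Unirradiated WT arrays lay below all arrays of each other group, and in *Il10*-/- mice the irradiated arrays (1.29 to 2.27) lay above the unirradiated ones (−0.58 to 1.11). The mean log2 ratio differed by 2.73 between irradiated and unirradiated WT mice and by 1.41 in *Il10*-/- mice, and the irradiated genotypes overlapped (0.76). In unirradiated WT mice *Il18bp* was well above background on 2 of 5 arrays and *Il18* on 3 of 5, so the ratios of that group and the value of 2.73 rest partly on readings near background. The ratio of *Il1r2* to *Il1r1*, with means from 4.42 to 6.49, overlapped between the groups of every comparison, and most *Il1r1* readings in it were not well above background.

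The mean of a list of monocyte and macrophage markers moved with *Il18* and *Il18bp*, while single markers of the list went in both directions. The mean of 14 such markers ran from 2.62 to 4.76 in unirradiated WT, 5.59 to 6.41 in irradiated WT, 4.93 to 5.33 in unirradiated *Il10*-/- and 5.62 to 6.05 in irradiated *Il10*-/- mice. Of 13 tested markers 7 were called higher and 1 lower in irradiated WT mice, and 4 higher and 3 lower in irradiated *Il10*-/- mice. Called or not, 10 of the 13 were higher after irradiation in WT mice and 9 in *Il10*-/- mice. By the group mean of its brightest probe, *Marco* went from 3.82 to 9.34 in WT and from 4.90 to 8.80 in *Il10*-/- mice. *Cx3cr1* went from 4.40 to 2.11 and from 5.03 to 1.88, and *Ccr2* and *Nr4a1* were also lower after irradiation in both genotypes. Over 20 arrays the mean of the 14 markers correlated with *Il18bp* by 0.909 (0.690 within groups) and with *Il18* by 0.882 (0.910 within groups), and its part in their differences was not tested. *Il18bp* correlated with the hepatocyte mean by 0.566 over all arrays and by −0.241 within groups. With that mean as a covariate *Il18bp* stayed called, at 2.67 in the baseline comparison, 4.10 in irradiated WT and 2.43 in irradiated *Il10*-/- mice. At baseline and in WT mice the hepatocyte mean did not overlap between the groups, so there this fit cannot separate its part from that of the group. The part of liver RNA in the *Il18bp* differences was not tested. *Il18bp* also correlated with a basophil and mast cell mean of 6 markers by 0.865 (0.484 within groups) and with a mean of 10 platelet markers by 0.748 (0.507 within groups), as *Il1r2* did with the platelet mean by 0.781 (0.597 within groups). The 6 markers are those of 10 listed that passed the background filter. Of the 10, *Ms4a2* and *Cd200r3* were well above background on 0 arrays of every group, and *Mcpt8* on 0 arrays of either irradiated group. *Hdc*, *Gata2* and *Cpa3* had higher means after irradiation in both genotypes, and of the 6 markers 6 were higher in WT and 5 in *Il10*-/- mice. The basophil and mast cell mean ran from 0.89 to 2.49 in unirradiated WT, 3.11 to 3.46 in irradiated WT, 1.77 to 2.71 in unirradiated *Il10*-/- and 2.63 to 3.66 in irradiated *Il10*-/- mice, with 1 of 6 markers called higher in each of the baseline and both radiation comparisons. The platelet mean ran from 6.73 to 8.11, 8.42 to 9.49, 7.08 to 9.94 and 9.58 to 10.55 in the same order of groups, and 0 of 10 markers were called in any comparison. The part of either cell type in these differences was not tested.

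**Figure D4:**
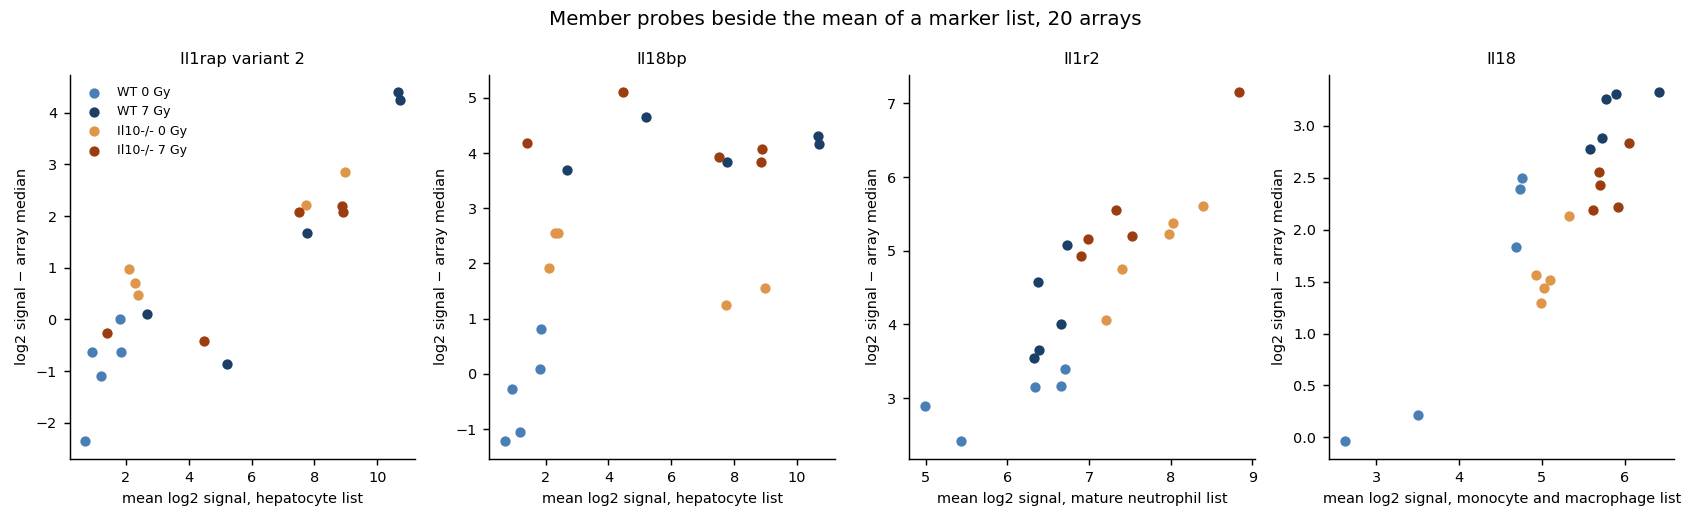
Levels of 4 members against the mean of a cell type's markers, both as log2 intensity relative to the array median, 1 point per array coloured by group. Correlations are given over the 20 arrays and then within groups. They are 0.888 and 0.856 for *Il1rap* variant 2 with the hepatocyte mean, and 0.566 and −0.241 for *Il18bp* with that mean. For *Il1r2* with the neutrophil mean they are 0.869 and 0.781, and for *Il18* with the monocyte and macrophage mean 0.882 and 0.910.

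*Il18r1*, the ligand-binding chain of the IL-18 receptor, was higher in unirradiated *Il10*-/- mice and fell after irradiation in them. By the variant 1 probe the level was 3.28, 3.30, 3.35, 2.78 and 1.34 in unirradiated WT mice and 5.13, 5.12, 4.23, 5.10 and 5.36 in unirradiated *Il10*-/- mice. The baseline difference of 2.18 (SE 0.44, 4.53-fold) was called (adjusted p = 0.0303) and the groups did not overlap. After 7 Gy the level was 1.51, 1.99, 2.18, 2.67 and 1.88 in WT mice and 3.53, 3.48, 2.53, 3.84 and 3.48 in *Il10*-/- mice. In *Il10*-/- mice all irradiated arrays were below all unirradiated ones, and *Il18r1* fell by 1.62 (SE 0.30, 3.06-fold lower, adjusted p = 0.00324), on 5 of 5 slides. With replicates 1 and 2 averaged into 1 sample this fall kept its size, −1.61, but no longer met the call rule (adjusted p = 0.0239), and with the normexp correction, under which no feature was called, it was −1.30. In WT mice the difference was −0.76 (adjusted p = 0.278) with overlap, and the responses were not shown to differ, since the interaction was not called. Among irradiated mice *Il10*-/- arrays were 1.33 higher (SE 0.30, adjusted p = 0.314).

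The variant 2 probe of *Il18r1* lies in the same gene and is no independent replicate. It was well above background on 0 arrays of either WT group, 5 of unirradiated *Il10*-/- and 1 of irradiated *Il10*-/- mice, and gave at least 1.49-fold higher signal in unirradiated *Il10*-/- than WT mice, but the groups overlapped and the difference was not called (adjusted p = 0.221). In *Il10*-/- mice its radiation difference was −0.80 (adjusted p = 0.0414), also lower on 5 of 5 slides and not called.

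*Il18rap*, the signalling accessory chain of the IL-18 receptor, read higher on *Il10*-/- than on WT arrays at both doses without meeting the call rule. Its level was 0.87, 0.94, 1.00, −1.11 and −0.78 in unirradiated WT and 2.15, 2.37, 1.36, 1.84 and 2.21 in unirradiated *Il10*-/- mice, with no overlap and a difference of 1.80 (SE 0.47, 3.49-fold, adjusted p = 0.112). Only 3 of the 5 unirradiated WT arrays were well above background, against 5 of 5 in unirradiated *Il10*-/- mice. With the slide as a block the difference was called (adjusted p = 0.0254). After irradiation the level was −0.23, 0.09, 0.54, 0.72 and −0.56 in WT and 1.25, 1.81, 0.86, 2.73 and 1.91 in *Il10*-/- mice, again without overlap, at 1.60 higher (SE 0.37, adjusted p = 0.314). Here 3 of 5 WT and 4 of 5 *Il10*-/- arrays were well above background. Radiation differences were −0.07 in WT and −0.27 in *Il10*-/- mice, both with overlap. Over the 20 arrays *Il18rap* correlated with the variant 1 reading of *Il18r1* by 0.831 (0.771 within groups) and with the neutrophil marker mean by 0.890 (0.755 within groups), whose part in its differences was not tested. The variant 1 reading of *Il18r1* correlated with a T-cell marker mean by 0.770 (0.787 within groups) and with an NK-cell mean by 0.521 (0.722 within groups). The T-cell mean ran from 4.28 to 6.24 in unirradiated WT, 3.44 to 4.97 in irradiated WT, 5.66 to 6.07 in unirradiated *Il10*-/- and 4.09 to 5.18 in irradiated *Il10*-/- mice, with 4 of 10 markers called lower in irradiated WT and 5 in irradiated *Il10*-/- mice, while 0 of 12 NK-cell markers were called. A mean of 10 neutrophil precursor markers correlated with the variant 1 reading by 0.831 (0.474 within groups), and 5 of these markers were called higher in unirradiated *Il10*-/- mice and 2 lower in irradiated *Il10*-/- mice. It ran from 1.54 to 3.31 in unirradiated WT, 1.95 to 2.93 in irradiated WT, 3.63 to 5.92 in unirradiated *Il10*-/- and 2.50 to 4.00 in irradiated *Il10*-/- mice. The part of these cell types in the *Il18r1* differences was not tested.

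Other genes of the pathway were read from 4 lists. Of 14 tested genes of the inflammasome and of cytokine processing 3 rose in irradiated WT mice, where 6.8% of all features were called and 4.48% as higher, namely *Cma1*, a mast cell protease, by 3.04 (SE 0.52), *Naip1*, a sensor of bacterial proteins, to at least 3.34 times its level (adjusted p = 0.00077, with 0 of 5 unirradiated arrays well above background), and *Pycard*, the adaptor that recruits caspase-1, by 2.37 (SE 0.51). In *Il10*-/- mice *Cma1* rose by 1.71 (SE 0.40) and none of the other 13 was called, beside 9.15% of features. Of 16 tested genes of receptor signalling only *Tab3*, a partner of the kinase TAK1, was called. *Tab3* fell by 1.85 (SE 0.33, adjusted p = 0.00285) in irradiated *Il10*-/- mice, where 5.87% of all features were called lower, a share near 1 of 16. Of 4 tested other members of the IL-1 family *Il33*, an alarmin of barrier tissues, rose by 1.498 (SE 0.32, adjusted p = 0.00766) in irradiated *Il10*-/- mice, with overlap and with 2 and 3 of 5 arrays well above background. In that comparison 3.28% of all features were called higher. Of 9 tested genes known to respond to IL-1 or IL-18, *Lcn2*, a neutrophil and acute-phase protein, was higher by 2.88 (SE 0.47, adjusted p = 0.00915) in unirradiated *Il10*-/- mice, beside 0.845% of all features called higher. *Saa3*, an acute-phase serum amyloid, rose by 7.18 (SE 0.89) in WT and 3.59 (SE 0.32) in *Il10*-/- mice after 7 Gy. Of all features 4.48% were called higher in irradiated WT and 3.28% in irradiated *Il10*-/- mice. Single calls in lists of this size are not a result about the lists. In the unirradiated comparison the medians of these 4 lists were 0.72, 0.57, 0.80 and 0.65, beside 0.36 over all features, and no gene of them was called lower.

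The genes most like the called members over the 20 arrays were read among 15188 genes, as a description of arrays that share mice and slides. For *Il1r2* they were *Tnfsf14* (r = 0.940 over all arrays, 0.853 within groups), *Crispld2* (0.926 and 0.739) and *Cd44* (0.922 and 0.791). For the variant 2 probe of *Il1rap* they were *Tm7sf2* (0.974 and 0.967), *Aldh1a7* (0.965 and 0.951) and *Dgat2* (0.958 and 0.955), of which *Dgat2* makes triglycerides and *Tm7sf2* acts in cholesterol synthesis. For the variant 1 probe of *Il18r1* they were *Tnfrsf25* (0.957 and 0.922), a death-domain receptor of T cells, *Fbxo27* (0.935 and 0.824) and *Acsbg1* (0.930 and 0.802). For *Il18bp* they were *Cpq* (0.969 and 0.721), *Pon3* (0.968 and 0.701) and *Lbp* (0.967 and 0.723), the lipopolysaccharide-binding protein. Between members, *Il18* and *Il18bp* correlated by 0.769 (0.678 within groups).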

How the data were processed

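The authors deposited the Feature Extraction output of every array, whose gProcessedSignal is a linear intensity per spot, background-subtracted and detrended but not normalized between arrays. The labels give version 10.7 of that software and the file headers 12.0.2.2, with probe positions in mm9. The authors also deposited a series table of log2 values scaled to 1 reference array (replicate 3 of the unirradiated *Il10*-/- group), used here as an alternative.

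In R 4.3.3, non-uniform outlier spots were dropped, the log2 intensities of repeated spots were averaged, and each array was centred on its median over 39429 non-control probes. A probe marked as an outlier or as not above background on at least 25% of the arrays was dropped (22988 kept), as were those that differed by 1.5-fold from their median on fewer than 20% of the arrays (18581 features of 15743 genes kept). These filters and the call threshold follow the study's methods, which name the class comparison of BRB-ArrayTools. In its place the 2 groups of each comparison were fitted here in limma 3.58.1 with moderated variances, and the difference between responses as an interaction over all 20 arrays, which is not part of those methods. Calls needed p below 0.001 and a Benjamini-Hochberg rate below 10%, p-values are 2-sided, and intervals are 95%. Where a probe was not well above background on any array of a group, a fold is given from the lowest signal well above background on each array. It is given as a bound only where every array of the other group was well above background. The number of arrays limits the precision, and p-values measure only the spread between these samples. A slide holds the same-numbered array of all 4 groups and was scanned once, which makes 5 slides, and the slide as a block is an alternative.

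The members and the gene lists (hepatocyte, heart muscle, mature and precursor neutrophil, monocyte and macrophage, basophil and mast cell, platelet, erythroid, T-cell, NK-cell and B-cell markers, and 4 pathway lists) were chosen with earlier results of these data known. The list of B-cell markers, whose mean ran from 5.06 to 6.49 in unirradiated WT, 2.71 to 3.60 in irradiated WT, 5.05 to 6.08 in unirradiated *Il10*-/- and 2.27 to 2.82 in irradiated *Il10*-/- mice, had 6 of 7 tested markers called lower after irradiation in each genotype. Of 9 tested erythroid markers 4 were called lower after irradiation in each genotype. All members are named with every probe, other pathway genes when called, and for each called member the 3 genes with the highest Pearson correlation. Promoter windows are RefSeq's, on GRCm38.p6. The main limma fit of each comparison was tested on simulated data with known changes, and the other steps were not. Figures and motif searches used Python 3.11.15, numpy 2.4.6, pandas 2.3.3 and matplotlib 3.10.9. Alternatives were other scalings, a normexp background correction with an offset of 50, other filters and thresholds, 1 fit of all groups, no moderation, the block, replicates 1 and 2 averaged, the hepatocyte mean as a covariate, and each array left out in turn.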

Additional observations from a re-analysis of the deposited data

Results flagged for a closer look

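In 9 of 48 sets of 5 arrays (12 probes in 4 groups) 1 array stood apart from the other 4 by more than Dixon's 95% critical value, and chance flags about 1 in 20 such sets. Replicate 5 of unirradiated WT mice, the array with the weakest signal, stood apart for *Il1a* (1.18, not well above background), *Il1rn* (−1.75) and the variant 1 probe of *Il18r1* (1.34). In irradiated WT mice replicate 3 was low for *Il1b* (4.93). In irradiated *Il10*-/- mice replicate 4 was high for *Il1b* (7.73) and *Il1r2* (7.16), replicate 5 was high for *Il18bp* (5.11), and replicate 3 was low for the variant 1 probe of *Il18r1* (2.53). In unirradiated *Il10*-/- mice replicate 3 was low for the variant 1 probe of *Il18r1* (4.23). None of these was left out of the values given above.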

How the results depend on the processing

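*Il18bp* in irradiated WT mice was called under 13 of 13 alternatives (1.73 to 4.63) and without any 1 array (4.24 to 4.74), and in irradiated *Il10*-/- mice under 12 of 13 (0.86 to 2.48) and without any 1 array (2.04 to 2.41). The fall of *Il18r1* (variant 1) in irradiated *Il10*-/- mice was called under 11 of 13 (−1.65 to −1.30) and without any 1 array. The baseline calls held under 9 of 13 alternatives for *Il1r2* (1.45 to 2.48), 11 for *Il18r1*, 10 for *Il18bp* (0.48 to 2.67) and 4 for *Il1rap* (0.35 to 2.76). The normexp correction, which left 6 member probes among 11432 features, gave the lowest *Il1r2*, *Il1rap* and *Il18bp* values.

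In the comparison of unirradiated groups the 4 calls became 2 with the 75th percentile of each array, 1 with quantile normalization, 0 with normexp and 0 without moderation of the variance (over all features 157 calls became 25 of 17085 with quantile, 0 of 11432 with normexp and 8 without moderation), and 1 to 5 with 1 array left out (1 without replicate 4 of unirradiated WT mice). The median of all features moved from 0.36 to −0.07 with the 75th percentile, 0.11 with quantile normalization and −0.01 with the reference array. In irradiated WT mice the 1 call became 3 at a rate below 5% alone, 2 with all 4 groups in 1 fit, and 1 to 2 with 1 array left out (*Il1rap* gained without replicate 4 or 5 of irradiated WT mice). In irradiated *Il10*-/- mice the 2 calls became 0 with normexp (over all features 1700 became 0 of 11432), 4 at a rate below 5% alone, 1 with replicates 1 and 2 averaged, and 2 to 3 with 1 array left out (*Il1b* gained without replicate 4). Between the irradiated genotypes and for the interaction 0 probes were called under every alternative, 0 to 0 with 1 array left out. Among all calls the higher ones were 832 of 1263 in irradiated WT mice, against 795 of 1556 (75th percentile), 705 of 1398 (quantile) and 1082 of 1813 (reference array), and 609 of 1700 in irradiated *Il10*-/- mice, against 930 of 1856 (reference array) and 946 of 1818 (series table).

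With the replicate number, which marks the slide, as a block the counts were 5, 2, 2, 0 and 0 for the unirradiated genotypes, WT and *Il10*-/- irradiation, the irradiated genotypes and the interaction. In no pair of groups did the deviations of all 5 same-numbered pairs correlate above 0.1 (means −0.13 to 0.41), so the numbers were not taken to pair the mice. However, 4 of 5 did between the WT groups (highest 0.32) and between the irradiated genotypes (highest 0.68). In each of the other pairs of groups 2 of 5 did.

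Signs turned only for differences that were not called. With the 75th percentile these were *Il1rn* (−0.071) and *Il18* (−0.14) at baseline, *Il1rn* (−0.10) and *Il18r1* variant 2 (−0.21) in irradiated WT mice, *Il18bp* (−0.0020) between irradiated genotypes, and *Il1b* (0.066) and *Il18rap* (0.055) in the interaction. With the reference array they were *Il1rn* (−0.022) and *Il18* (−0.091) at baseline, *Il18r1* variant 2 (−0.087) in WT mice, and *Il1b* (0.064) and *Il18rap* (0.052) in the interaction. With the series table they were *Il1rn* (−0.12) and *Il18* (−0.071) at baseline, *Il1rn* (−0.085) and *Il18r1* variant 2 (−0.066) in WT mice, *Il1rap* (0.12) in *Il10*-/- mice, and *Il1b* (0.060) and *Il18rap* (0.030) in the interaction. Quantile normalization turned *Il18rap* in WT mice (0.16) and *Il1b* (0.28) and *Il1rn* (−0.11) in the interaction. Normexp turned *Il1b* in WT mice (0.28) and *Il18bp* between irradiated genotypes (−0.39), and averaging replicates 1 and 2 turned *Il18rap* in WT mice (0.15). The hepatocyte covariate turned *Il18* at baseline (−0.19), *Il1rn* (−0.068), *Il1rap* (−1.03) and *Il18rap* (0.081) in WT mice, and *Il1b* in the interaction (0.032). With 1 array left out the ranges that crossed 0 were, at baseline, *Il18* −0.14 to 0.49 and *Il1rn* −0.072 to 0.42. In WT mice they were *Il18r1* variant 2 −0.37 to 0.30, *Il18rap* −0.40 to 0.13 and *Il1rn* −0.23 to 0.27. In *Il10*-/- mice *Il1rap* ran from −0.58 to 0.081, between irradiated genotypes *Il18bp* from −0.13 to 0.23, and in the interaction *Il18rap* from −0.45 to 0.12 and *Il1b* from −0.53 to 0.014. The cause of these changes was not tested.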
